A study of Homo sapiens with 24 samples.

Results

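The RUNX transcription factors, their shared partner and the ETO family of corepressors are described here as 7 genes: *CBFA2T2*, *CBFA2T3* and *RUNX1T1* of the ETO family, *RUNX1*, *RUNX2* and *RUNX3*, and *CBFB*. They are 7 of the 60605 genes counted by PRO-seq, which sequences the growing ends of nascent RNA and so measures ongoing transcription. The genes were chosen by measured values of the contrast of dTAG-13 and DMSO: the list was drawn up because *CBFA2T3* fell with dTAG-13 and because *RUNX1* moved against the direction of a gene list of the study that holds it. Their values in that contrast are therefore given as a description. For the members, the tests below concern what the choice did not use. These are the level in each clone, the replicate number and the difference between clones in the response. Markers and listed genes are tested in the contrast of dTAG-13 and DMSO as well.

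The cells were T47D, an established luminal breast cancer cell line, with the dTAG degron inserted at the endogenous *TRPS1* gene. dTAG-13 is a small molecule that brings the tagged protein to an E3 ubiquitin ligase for degradation, and TRPS1 is a GATA family repressor. Clone 28, Clone 35 and Clone 39 were each given 0.1% DMSO or 100 nM dTAG-13 for 90 minutes, in 4 replicates a group, which makes 6 groups and 24 libraries. Replicates were dishes handled at different times of 1 day, with both treatments of a replicate harvested together. All groups carried the tag. By the study's methods, the clones came from hygromycin selection of cells that had already been cloned once under puromycin, so each line is 1 clone, and p-values measure only the spread between its dishes. No untagged or parental cells were in the comparison. Library totals ran from 3226718 to 9575803 counts with a median of 5042122.

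RUNX proteins bind DNA through the runt domain and need the partner CBFB, which does not touch DNA itself but stabilises their binding. They activate or repress depending on their cofactors, and are known for their roles in blood (RUNX1), bone (RUNX2) and neurons and immune cells (RUNX3). In mammary epithelium *RUNX1* is the family member best known in luminal cells. ETO family proteins do not bind DNA on their own: they bridge DNA-bound factors, among them E proteins, to corepressor complexes, such as that of NCOR1, and histone deacetylases. *RUNX1T1*, also called ETO, gave the family its name through its fusion to *RUNX1* in acute myeloid leukaemia, and *CBFA2T2* (MTGR1) and *CBFA2T3* (MTG16) are its paralogs.

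The luminal label was checked against markers. The 8 luminal markers (among them *ESR1*, *PGR*, *GATA3*, *FOXA1*, *KRT8*, *KRT18* and *KRT19*) summed to between 3666 and 5982 CPM in every library, where CPM are the reads of a gene scaled to the library's size by TMM. The 4 basal or myoepithelial markers summed to 15.8 to 27.3 CPM, the 4 blood markers to 5.66 to 14.1, the 3 fibroblast markers to 7.53 to 16.9 and the 3 endothelial markers to 3.58 to 8.06. Of the basal list, the keratin genes *KRT5* and *KRT14* had at most 2 and 5 reads in any library, while *TP63* had 22 to 192 and *ACTA2* 16 to 72, and both of these differed between the clones in DMSO (adjusted p = 4.42e-05 and 3.56e-04, edgeR). With dTAG-13 1 of the 8 luminal markers passed the test used below, where 0.551% of all genes did. This was *KRT19*, which fell by 0.13 on the log2 scale (adjusted p = 0.0348, edgeR), and no marker of the other cell types passed. The clones in DMSO differed in 5 of the 8 luminal markers, and in 7 with the replicate number as a block, where 25.5% and 41.4% of all genes did. In bulk cells, fewer cells transcribing a gene and less transcription per cell cannot be told apart. *TRPS1* itself was transcribed at 5145 to 9229 CPM, a level that cannot report on the loss of its protein.

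Over the annotated gene span, *CBFA2T3* was the most transcribed of the 7 genes per unit of length, and *RUNX3* and *RUNX1T1* were close to silent. Levels in the 12 DMSO libraries are given as RPKM, CPM divided by the kilobases of the annotated gene span, since PRO-seq reads lie along introns too. *CBFA2T3* stood at 1.29 ± 0.073 RPKM (SD, n = 12), above the next gene in the order by more than the spread of both. *CBFB* followed at 1.00 ± 0.100 and *CBFA2T2* at 0.984 ± 0.064, which lay within the spread of each other. Next came *RUNX2* at 0.490 ± 0.103 RPKM and *RUNX1* at 0.297 ± 0.048, each apart from its neighbours by more than the spread.

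The order of the genes, the place of *CBFA2T3* at the top included, depended on the length used. The annotated span of *RUNX1* runs over 1217 kb, while its MANE Select transcript, the reference transcript agreed between annotations, covers 261.5 kb. Over the MANE Select span, a choice made after seeing the data, *RUNX1* stood at 1.38 ± 0.225 RPKM and *RUNX2* at 0.740 ± 0.156. *RUNX1* was then above *CBFA2T3*, at 1.29 over either span, by less than the spread. *RUNX3* (0.0282 ± 0.0097 RPKM over the gene span) and *RUNX1T1* (0.0081 ± 0.0025) stayed at the bottom. *RUNX3* had 3 to 18 reads in a library and *RUNX1T1* 2 to 14, so that neither gave a level that could show a moderate difference. The filter on low counts kept 22326 genes, among them 6 of the 7 members, and left out *RUNX1T1*.

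**Figure D1:**
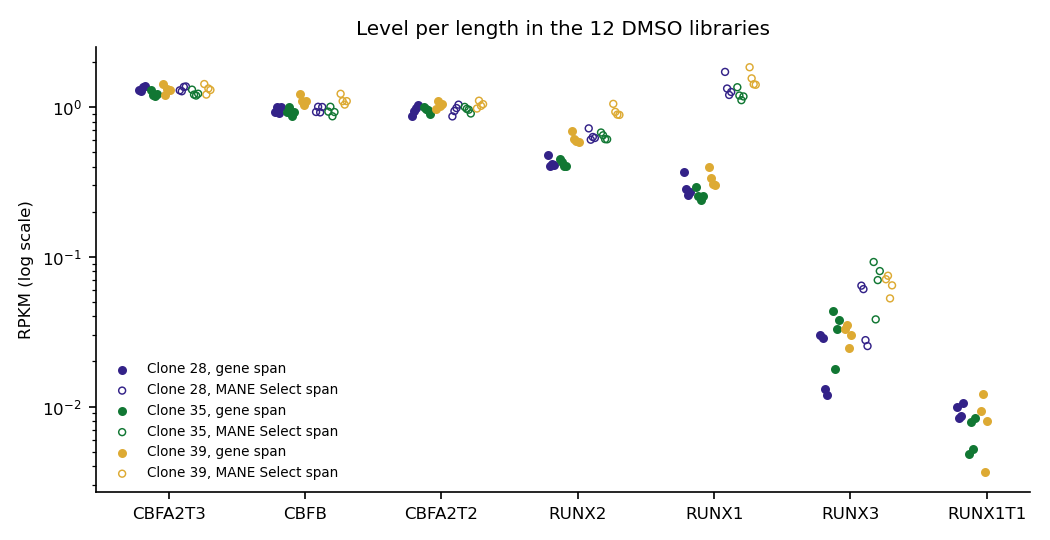
Level of each of the 7 genes per kilobase in the 12 DMSO libraries, in RPKM on a log axis, with 1 point a library, coloured by clone. Filled points use the annotated gene span and open points the span of the MANE Select transcript; RUNX1 moves from a mean of 0.297 to 1.38 RPKM between them, RUNX3 and RUNX1T1 lie lowest, and RUNX1T1 has no MANE Select span.

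*CBFA2T3* (ENSG00000129993), the ETO family corepressor with the highest level per kilobase, occupies chromosome 16 from 88874858 to 88977207 on the minus strand (hg38, GENCODE 44). In Clone 28 its 4 DMSO libraries were at 132, 130, 139 and 140 CPM and its 4 dTAG-13 libraries at 106, 108, 120 and 111 CPM, in the order of replicates 1 to 4. In Clone 35 they were at 134, 124, 122 and 126 CPM in DMSO and at 112, 108, 107 and 113 CPM with dTAG-13. Clone 39 had 146, 124, 136 and 133 CPM in DMSO and 129, 119, 119 and 122 CPM with dTAG-13. All libraries with dTAG-13 lay below all those with DMSO in Clones 28 and 35, while in Clone 39 the ranges overlapped. How many of all genes tested were separated in this way was not counted. Every one of the 12 pairs of libraries of the same clone and replicate number was lower with dTAG-13, by 0.05 to 0.34 on the log2 scale. Of the 22326 genes tested, 44 (0.197%) were lower in all 12 pairs and 81 were higher in all 12. These values are a description, since this contrast chose the gene.

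Fitted over the 3 clones, the log2 difference of *CBFA2T3* was -0.21 (SE 0.034). In that fit 123 of 22326 genes passed an adjusted p of 0.1 in edgeR's quasi-likelihood test (0.551%), 80 higher and 43 lower with dTAG-13. With a term for each of the 12 pairs 521 genes passed (2.33%). *CBFA2T3* was among them in both fits, as its choice entailed. Without Clone 28, 1 gene passed the fit without pairs and *CBFA2T3* was not that gene, at a log2 difference of -0.17. With pairs and without Clone 28, an alternative added after seeing the data, 175 genes passed and *CBFA2T3* was among them. Both refits use libraries of the contrast that chose the gene, so neither is a test of its fall.

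By clone, the fitted log2 difference of *CBFA2T3* was -0.28 (SE 0.058) in Clone 28, -0.20 (SE 0.057) in Clone 35 and -0.14 (SE 0.058) in Clone 39, that is, dTAG-13 levels of 0.821, 0.872 and 0.906 of those in DMSO. Whether the 3 clones differ in this response was tested jointly as an interaction, which did not pass (adjusted p = 1.00 by edgeR's quasi-likelihood test, 0.230 unadjusted). The response in Clone 39 was smaller than that in Clone 28 by 0.14 (SE 0.082), and this pair of clones was not tested by itself. No gene passed that test (0.0% of 22326 genes), with 407 genes at an unadjusted p under 0.05, and DESeq2 called 0 genes with 252 under 0.05. The other 5 members tested also had an adjusted p of 1.00 there.

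The level of *CBFA2T3* differed little between the untreated clones. In the comparison of the 3 clones in DMSO, which 25.5% of genes passed, its adjusted p was 0.397 (edgeR), with Clone 35 at 0.11 below Clone 28 on the log2 scale (SE 0.064) and Clone 39 at 0.02 below it (SE 0.065). With the replicate number as a block, where 41.4% of genes passed, it was 0.0997, just past the threshold. Among the dTAG-13 libraries, in which 28.6% of genes passed, it was 0.0928 (edgeR), with Clone 39 higher than Clone 28 by 0.13 (SE 0.058). The libraries of this last comparison carry the response that chose the gene.

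**Figure D2:**
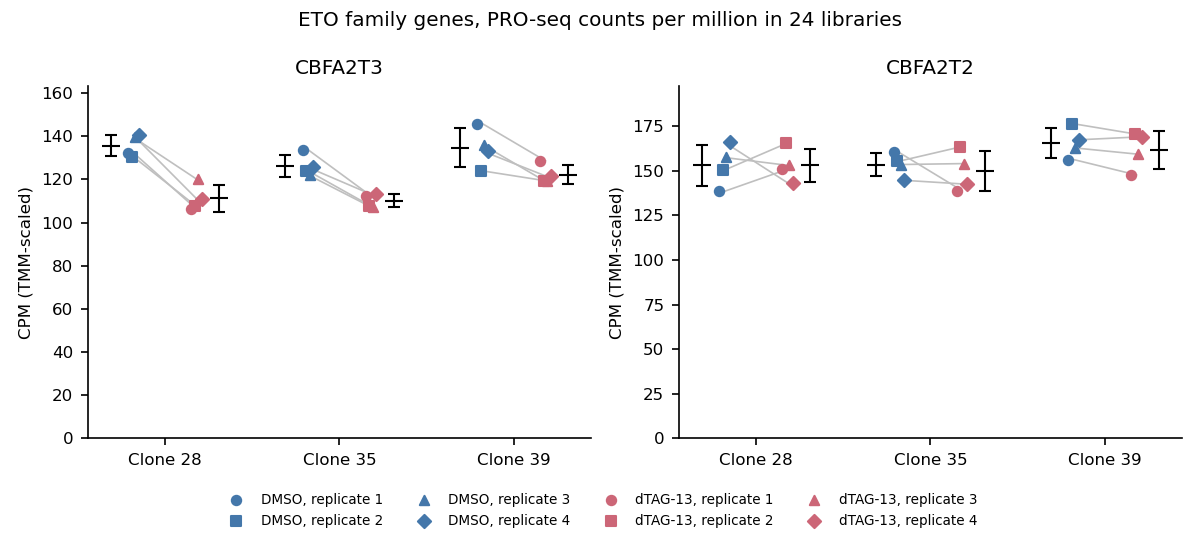
CBFA2T3 (left) and CBFA2T2 (right) in CPM scaled by TMM in each of the 24 libraries, by clone, with DMSO in blue and dTAG-13 in red, marker shape for the replicate number, grey lines joining libraries of 1 pair, and black bars for the mean and SD of 4 libraries. All 12 lines of CBFA2T3 slope down, whereas 7 of the 12 lines of CBFA2T2 do.

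A long noncoding RNA gene on the same strand inside *CBFA2T3* (ENSG00000261226, 20 to 61 reads a library) and one on the opposite strand (ENSG00000205018, 38 to 123 reads) also passed the filter. The counting appears to have used the strand, though no source used here states it: genes nested in another gene on the opposite strand had a median of 0.0238 of the host's reads per kilobase (630 genes), against 0.935 on the same strand (252 genes). Reads of a nested gene on the same strand can be counted in its host as well, and for *CBFA2T3* this concerns a stretch of 2873 bases.

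The start site of the RefSeq promoter window of *CBFA2T3* lies 35.86 kb inside the annotated gene span. It is shown because *CBFA2T3* is the member the choice of genes turned on, beside the windows of the RUNX genes that carry the results further on. Each window (GRCh38.p14, from RefSeq) spans 250 bases before the start site and 50 bases from it, and is written 5′ to 3′ on the gene's strand. Capitals mark the RUNX motif TGTGGT, the GATA motif AGATAA or the ER half-site AGGTCA in either direction, searched on both strands, and the windows hold no overlapping matches. RefSeq windows were at hand for 5 of the 7 genes, with 2 each for *RUNX2* and *RUNX3*.
CBFA2T3, chr16:88941301-88941600, minus strand: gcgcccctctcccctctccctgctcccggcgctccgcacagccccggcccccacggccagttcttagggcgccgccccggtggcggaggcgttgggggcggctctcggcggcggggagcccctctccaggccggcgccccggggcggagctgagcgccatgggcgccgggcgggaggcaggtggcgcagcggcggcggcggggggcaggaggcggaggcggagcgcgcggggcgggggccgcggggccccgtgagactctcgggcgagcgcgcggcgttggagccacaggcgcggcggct
RUNX1, chr21:34888650-34888949, minus strand: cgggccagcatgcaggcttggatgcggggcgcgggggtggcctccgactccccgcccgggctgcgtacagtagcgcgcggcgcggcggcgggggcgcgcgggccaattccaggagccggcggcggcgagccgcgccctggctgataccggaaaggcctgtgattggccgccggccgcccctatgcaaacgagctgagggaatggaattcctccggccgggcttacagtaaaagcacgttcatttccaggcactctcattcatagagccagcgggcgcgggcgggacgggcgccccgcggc
RUNX2 distal, chr6:45328080-45328379, plus strand: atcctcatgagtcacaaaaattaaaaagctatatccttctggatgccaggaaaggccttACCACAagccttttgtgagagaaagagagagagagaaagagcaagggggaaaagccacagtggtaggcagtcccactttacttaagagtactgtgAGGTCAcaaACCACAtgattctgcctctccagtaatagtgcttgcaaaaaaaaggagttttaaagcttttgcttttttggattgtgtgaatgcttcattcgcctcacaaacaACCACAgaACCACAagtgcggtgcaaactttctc
RUNX2 proximal, chr6:45422025-45422324, plus strand: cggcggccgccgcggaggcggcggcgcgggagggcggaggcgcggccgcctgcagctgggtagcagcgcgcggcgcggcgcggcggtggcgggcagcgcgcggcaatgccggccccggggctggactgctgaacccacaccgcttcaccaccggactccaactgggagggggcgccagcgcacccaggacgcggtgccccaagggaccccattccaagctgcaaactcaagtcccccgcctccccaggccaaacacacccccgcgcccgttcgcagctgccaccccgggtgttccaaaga
RUNX3 distal, chr1:24964961-24965260, minus strand: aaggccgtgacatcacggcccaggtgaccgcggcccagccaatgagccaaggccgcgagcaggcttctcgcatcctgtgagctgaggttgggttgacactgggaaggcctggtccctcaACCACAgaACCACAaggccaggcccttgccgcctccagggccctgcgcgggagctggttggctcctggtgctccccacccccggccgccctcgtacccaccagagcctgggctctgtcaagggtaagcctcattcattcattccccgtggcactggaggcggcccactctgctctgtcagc

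The windows differ in base composition and in these letters. The window of *CBFA2T3* is 83.0% G or C and that of *RUNX1* 72.0%, against a median of 58.7% over all 35116 windows in the table, and neither holds any of the 3 motifs. The start site of the *RUNX1* window lies 1116 kb inside the annotated gene span, and no window at a more distal start site was at hand. The distal window of *RUNX2* is 42.7% G or C and holds the RUNX motif 4 times and an ER half-site once, while its proximal window, at 76.0%, holds none. The distal window of *RUNX3* holds the RUNX motif 2 times, 8 bases apart, while its proximal window holds none. Over all windows, 13.1% hold the RUNX motif, 10.3% the GATA motif and 13.8% the ER half-site. At least 2 RUNX motifs stand in 1.31% of windows and at least 4 in 5 windows (0.0142%). A match is a stretch of letters only, and the reads were counted over whole genes, so that they do not tell which start site was in use.

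*CBFA2T2* (ENSG00000078699), on the plus strand of chromosome 20 from 33490075 to 33650036, encodes the ETO family corepressor MTGR1. In DMSO it was at 138 to 166 CPM in Clone 28, 145 to 160 in Clone 35 and 156 to 176 in Clone 39. With dTAG-13 it was at 143 to 166, 139 to 164 and 148 to 170 CPM in the same order. The ranges of both treatments overlapped in every clone. Its log2 difference with dTAG-13 was -0.02 (SE 0.037), and 7 of 12 pairs were lower. The clones in DMSO did not pass without the block (adjusted p = 0.398, edgeR) and passed with the replicate number as a block (0.0913), with Clone 39 higher than Clone 28 by 0.11 (SE 0.067) without it.

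*RUNX1T1* (ENSG00000079102) was close to silent in these cells. It spans 91954972 to 92103286 of chromosome 8 (minus strand), and had 6, 6, 6 and 8 reads in the 4 DMSO libraries of Clone 28, 3, 7, 5 and 9 in Clone 35, and 7, 7, 2 and 6 in Clone 39. With dTAG-13 the counts were 7, 9, 8 and 8, then 9, 5, 14 and 9, then 9, 7, 3 and 14. The ranges overlapped in all 3 clones. In CPM 9 of 12 pairs were higher with dTAG-13, with a mean log2 difference of 0.32 and an SD of 0.38 over the pairs, on counts that the filter left out of the fits.

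*RUNX1* (ENSG00000159216), the RUNX factor known for its role in blood formation and in luminal breast cells, spans 34787801 to 36004667 of chromosome 21 (minus strand). In Clone 28 it was at 449, 348, 315 and 330 CPM in DMSO and at 425, 309, 316 and 331 CPM with dTAG-13, for replicates 1 to 4. In Clone 35 it was at 355, 312, 291 and 308 CPM in DMSO and at 348, 257, 294 and 304 CPM with dTAG-13. Clone 39 had 482, 406, 371 and 368 CPM in DMSO and 464, 357, 330 and 363 CPM with dTAG-13. Replicate 1 was the highest library in all 6 groups. The treatments overlapped in every clone.

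The log2 difference of *RUNX1* with dTAG-13 was -0.08 (SE 0.074), and 9 of 12 pairs were lower. It was not among the 123 genes of the fit without pairs and was, narrowly, among the 521 genes of the fit with pairs. With pairs it no longer passed when a clone was left out, whichever clone that was. These values are a description, since the choice of *RUNX1* used this contrast. The 3 pairs of replicate 2 differed by -0.17, -0.28 and -0.19, those of replicate 1 by -0.08, -0.03 and -0.06, those of replicate 3 by 0.01, 0.02 and -0.17, and those of replicate 4 by 0.01, -0.02 and -0.02, in Clones 28, 35 and 39. By clone the fitted log2 difference was -0.06, -0.07 and -0.11 in Clones 28, 35 and 39, each with an SE of 0.13.

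**Figure D3:**
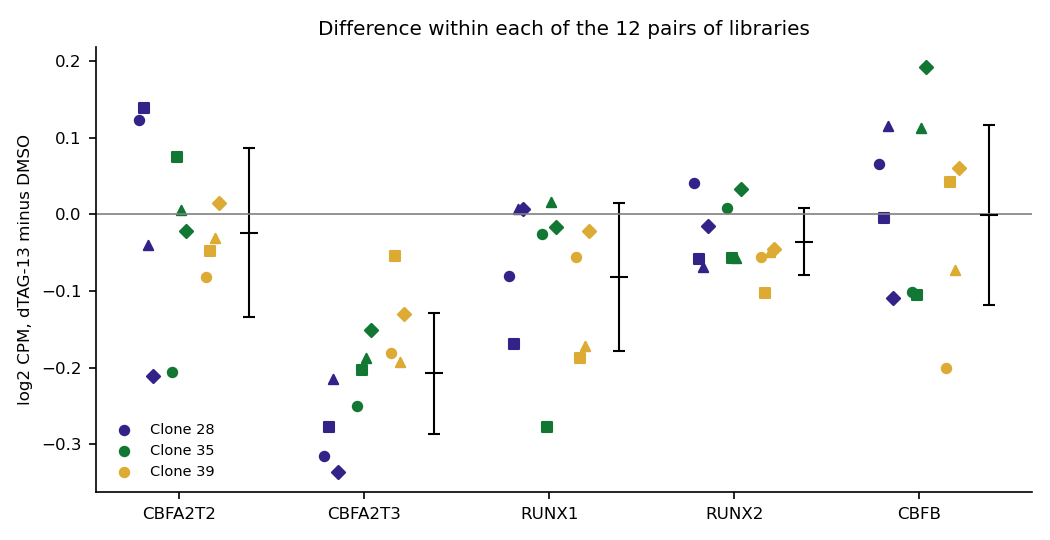
Difference in log2 CPM, dTAG-13 minus DMSO, within each of the 12 pairs of libraries, for the 5 members with enough reads. Colour gives the clone, marker shape the replicate number as in the other plots, and black bars the mean and SD of the 12 pairs; the 12 points of CBFA2T3 lie below 0, while those of the other 4 genes fall on both sides.

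*RUNX1* followed the replicate number, which was taken to mark dishes handled together. That the 3 clones of a number were handled together is not stated by the study. In DMSO its adjusted p for a difference between the 4 numbers was 4.03e-11 (edgeR), where 29.0% of genes passed, and among the dTAG-13 libraries it was 1.47e-10, where 19.4% passed. Ranked by p, it was gene 169 of 22326 in DMSO and gene 54 with dTAG-13. Relative to the mean of its clone and treatment, replicate 1 was higher by 0.25 ± 0.081 on the log2 scale in DMSO (SD over 3 clones) and by 0.28 ± 0.052 with dTAG-13. The lowest number was 3 in DMSO (-0.14 ± 0.034) and 2 with dTAG-13 (-0.15 ± 0.072). From the highest to the lowest number, the difference was 1.31-fold in DMSO and 1.34-fold with dTAG-13.

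Both treatments of a number were harvested together, so the dTAG-13 libraries are a second set of dishes from the same rounds and not a second set of rounds. Of the 6478 genes that passed in DMSO, 33.1% were highest at number 1 and 33.6% lowest there, so that a high level at number 1, as in *RUNX1*, was 1 of several patterns among them. The estrogen receptor gene *ESR1* passed as well (adjusted p = 5.63e-15, edgeR), with 0.13 at number 1, 0.18 at number 2, -0.13 at number 3 and -0.18 at number 4. What set the numbers apart was not tested.

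The 3 clones differed in *RUNX1*. In DMSO its adjusted p was 0.0671 (edgeR) and with the replicate number as a block 1.32e-11. Clone 39 was above Clone 35 by 0.37 (SE 0.11) and above Clone 28 by 0.17 (SE 0.11), and Clone 35 was below Clone 28 by 0.20 (SE 0.11). The order Clone 39, Clone 28, Clone 35 held at each of the 4 replicate numbers in DMSO. Without the block the call was lost in 5 of the 12 fits that left out 1 library, namely replicates 2, 3 and 4 of Clone 35 and replicates 1 and 2 of Clone 39, at an adjusted p of 0.130 to 0.166. Among the dTAG-13 libraries without the block it did not pass either (0.259).

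*RUNX2* (ENSG00000124813), the RUNX factor known as the master regulator of bone formation, lies on the plus strand of chromosome 6 from 45328157 to 45664349. In Clone 39 it was at 234, 207, 198 and 197 CPM in DMSO and at 225, 192, 192 and 191 CPM with dTAG-13. Clone 28 had 160, 135, 141 and 138 CPM in DMSO and 165, 129, 134 and 137 CPM with dTAG-13. Clone 35 had 151, 144, 136 and 136 CPM in DMSO and 151, 139, 131 and 139 CPM with dTAG-13. Every library of Clone 39 was above every library of the other clones, under both treatments. The share of all genes with such a gap was not counted.

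In DMSO the clones differed in *RUNX2* with an adjusted p of 3.53e-06 (edgeR, 25.5% of genes passed). Clone 39 was 1.45-fold above Clone 28 (log2 0.54, SE 0.073) and 1.48-fold above Clone 35 (log2 0.57, SE 0.073), while Clones 28 and 35 differed by 0.03 (SE 0.073). The dTAG-13 libraries gave an adjusted p of 3.47e-06 with log2 differences of 0.50 (SE 0.074) and 0.52 (SE 0.074) for Clone 39 against Clones 28 and 35. The call held in all 12 fits that left out 1 DMSO library, at an adjusted p of 1.30e-06 to 3.73e-05. Of the genes tested, 1172 had a larger excess in Clone 39 over the mean of the other clones.

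*SUPT3H* encodes a subunit of the SAGA coactivator, and its gene lies on the opposite strand and shares 49797 bases with *RUNX2*. In Clone 39 it was higher by 0.25 on the log2 scale than the mean of the other clones. Its adjusted p of 0.0248 (edgeR) is for the joint test of any difference between the 3 clones in DMSO. In a window of 1000000 bases on either side of *RUNX2*, set after its values had been seen, 12 other genes were tested. There, 7 were higher in Clone 39 and 5 lower, with a median of 0.13, against 0.00 over all genes tested. Of these 12 genes 2 passed the joint test of the clones, where 25.5% of all genes did. They were *SUPT3H* and *CYP39A1* (0.42, adjusted p = 0.0490, edgeR). The same window around the other members gave medians of -0.05 to 0.07, with -0.01 for *RUNX1* and 0.05 for *CBFB*. Whether the region as a whole differs in Clone 39 was not tested.

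Like *RUNX1*, *RUNX2* differed between the replicate numbers, with an adjusted p of 0.00246 in DMSO and 8.84e-04 with dTAG-13 (edgeR). Replicate 1 was higher than the mean of its group by 0.14 ± 0.043 on the log2 scale in DMSO and by 0.17 ± 0.057 with dTAG-13, and the other numbers were all below 0. In DESeq2 the DMSO result ended just short of the threshold (0.101). With dTAG-13, *RUNX2* differed by -0.04 on the log2 scale (SE 0.042), with 9 of 12 pairs lower and overlapping ranges in every clone.

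**Figure D4:**
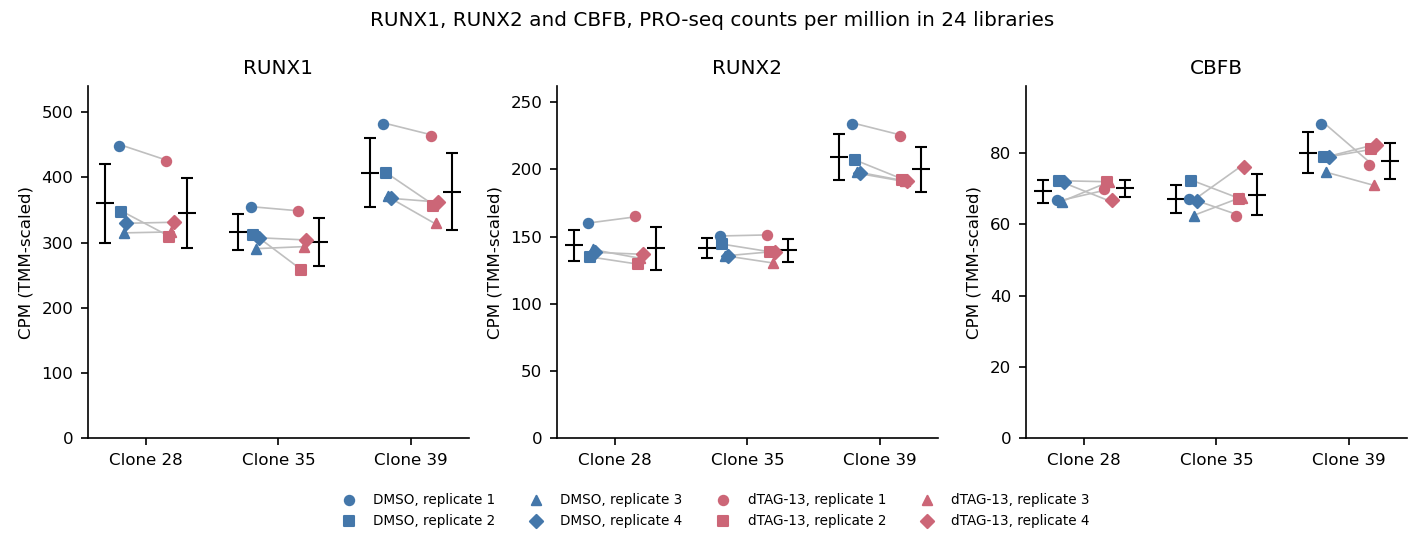
RUNX1, RUNX2 and CBFB in CPM scaled by TMM in each of the 24 libraries, by clone, with DMSO in blue and dTAG-13 in red, marker shape for the replicate number, grey lines for pairs, and black bars for the mean and SD of 4 libraries. In the RUNX2 panel the 8 libraries of Clone 39 sit between 191 and 234 CPM, above the 16 others, and circles (replicate 1) are the highest points of RUNX1 in each group.

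**Figure D5:**
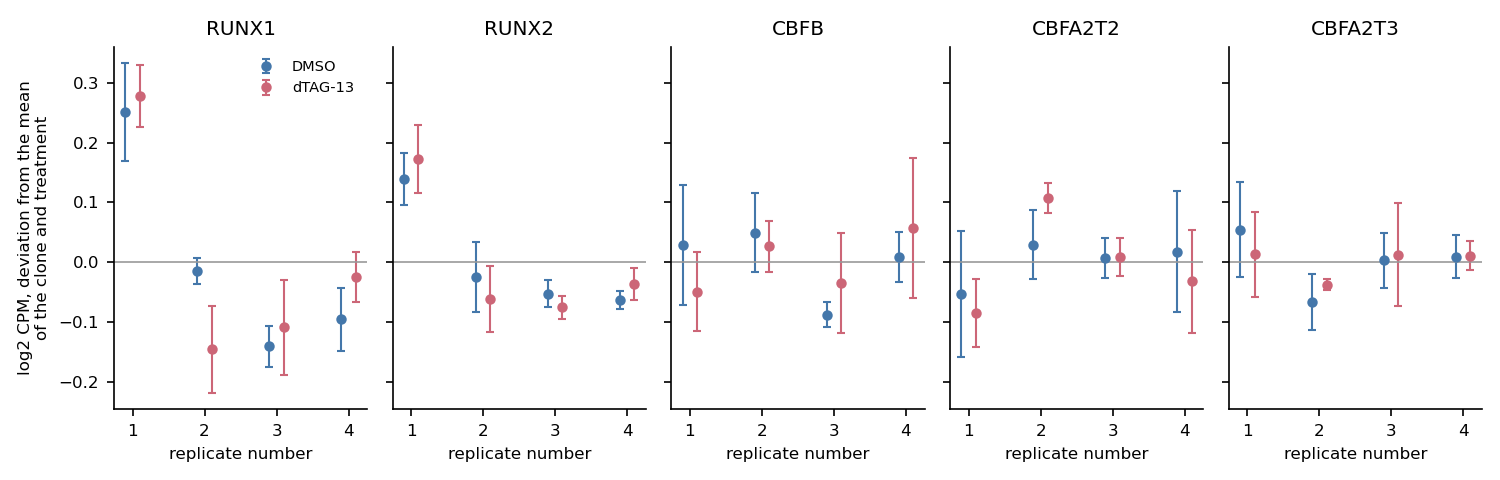
Mean deviation in log2 CPM of the 3 libraries with each replicate number from the mean of their clone and treatment, for 5 members, with DMSO in blue and dTAG-13 in red. Bars give the SD over the 3 clones; RUNX1 stands at 0.25 and 0.28 and RUNX2 at 0.14 and 0.17 for number 1, while CBFB, CBFA2T2 and CBFA2T3 stay within 0.11 of 0 at every number.

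*RUNX3* (ENSG00000020633), which spans 24899511 to 24965121 of chromosome 1 (minus strand), was barely transcribed. In DMSO its reads were 8, 9, 4 and 4 in Clone 28, 12, 7, 14 and 18 in Clone 35, and 11, 9, 6 and 10 in Clone 39. With dTAG-13 they were 6, 9, 7 and 3, then 15, 10, 9 and 14, then 11, 6, 3 and 7. The log2 difference with dTAG-13 was -0.24, with an SE of 0.22 of similar size. Neither the clones in DMSO (adjusted p = 0.395, edgeR) nor the replicate numbers (0.732) passed.

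*CBFB* (ENSG00000067955), the partner of all RUNX proteins, lies on the plus strand of chromosome 16 from 67028984 to 67101058. In DMSO it was at 66.6, 72.2, 66.2 and 72.0 CPM in Clone 28, and at 67.0, 72.2, 62.4 and 66.6 CPM in Clone 35. In Clone 39 it was at 88.1, 78.7, 74.7 and 78.7 CPM. Each DMSO library of Clone 39 was above the 8 DMSO libraries of the other clones, a gap whose share over all genes was not counted. With dTAG-13 the ranges were 66.7 to 71.9, 62.4 to 76.1 and 71.0 to 82.1 CPM in Clones 28, 35 and 39, and overlapped.

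In DMSO the clones differed in *CBFB* with an adjusted p of 0.0252 (edgeR). Clone 39 was 1.15-fold above Clone 28 (log2 0.20, SE 0.073) and 1.20-fold above Clone 35 (log2 0.26, SE 0.072). Without replicate 1 of Clone 39 the adjusted p was 0.136. The dTAG-13 libraries gave 0.0845, with 0.15 (SE 0.069) and 0.19 (SE 0.069). The replicate numbers did not pass (0.375), and the log2 difference with dTAG-13 was 0.00 (SE 0.038).

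Of the 6 members tested, 3 passed in the comparison of the clones in DMSO (*RUNX1*, *RUNX2* and *CBFB*), with Clone 39 highest in each, and 5 with the replicate number as a block. The share over all genes was 25.5% and with the block 41.4%. In the comparison of replicate numbers 2 of 6 passed in DMSO, *RUNX1* and *RUNX2*, a share near the 29.0% over all genes. With dTAG-13, where 19.4% of genes passed, *CBFA2T2* passed too (adjusted p = 0.0609, edgeR), with number 2 higher by 0.11 ± 0.026.

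The proteins that ETO family members recruit were taken from a list of 10 genes, all tested. With dTAG-13 the median log2 difference of the list was -0.02, against 0.00 over all genes tested. In the clones 7 of 10 passed in DMSO, where 25.5% of all genes did. For this list and those below, the adjusted p of the clones is for the joint test of any difference between the 3 clones. It is not a test of the single differences printed beside it. *NCOR1*, a corepressor that ETO family proteins bind, was lower in Clone 39 than in Clone 28 by 0.80 on the log2 scale (adjusted p = 1.22e-07, edgeR), and *GPS2*, a subunit of the same complexes, by 0.66 (0.00204).
*SIN3A* and *TBL1X* were lower in Clones 35 and 39 than in Clone 28, by 0.26 and 0.32 (adjusted p = 0.00886) and by 0.24 and 0.24 (0.0155), and *HDAC1* by 0.23 and 0.25 (0.0463), while *SIN3B* was higher in Clone 39 by 0.28 (0.0635). The replicate numbers called 3 of the 10 genes, near the 29.0% of all genes: *TBL1XR1* (6.33e-08), *NCOR1* (0.0161) and *SIN3B* (0.0712), of which *TBL1XR1* was highest at number 1 (0.18).

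Of 12 listed DNA-binding and bridging partners of ETO proteins 10 were tested, and the blood factors *TAL1* and *GFI1* had too few reads. With dTAG-13 none passed without pairs, where 0.551% of all genes did, with a list median of -0.09. With pairs, where 2.33% of all genes passed, *LMO4*, a LIM-only bridging protein, was higher (adjusted p = 0.00262, edgeR). *ZBTB16* (4.11e-04), the zinc finger repressor PLZF, and *LDB1* (0.0732), a LIM-domain binding scaffold, were lower. In the fit without pairs the log2 differences were 0.12 for *LMO4*, -0.20 for *ZBTB16* and -0.13 for *LDB1*. In the clones 5 of 10 passed, against 25.5% of all genes. *ZBTB16* was far lower in Clone 39, at a log2 difference of -2.39 from Clone 28 (adjusted p = 8.41e-05), and *LMO4* was higher there by 0.84 (2.84e-05).
The E protein genes *TCF4* (0.55 in Clone 39 and -0.49 in Clone 35, both against Clone 28, adjusted p = 0.0181), *TCF12* (0.17 and -0.13, 0.0548) and *TCF3* (0.27 and 0.06, 0.0944) also passed. The replicate numbers called 6 of 10, against 29.0% of all genes: *LMO4* (2.25e-10), *TCF12* (2.28e-07), *ZBTB16* (0.0171), *ZNF652* (0.0376), *BCL6* (0.0486) and *GFI1B* (0.0716).

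All 16 listed RUNX cofactors and modifiers were tested. None passed with dTAG-13 without pairs, at a list median of -0.01, where 0.551% of all genes passed. With pairs, where 2.33% of all genes passed, *TLE3*, a Groucho family corepressor, was lower (adjusted p = 0.0152, edgeR). In the fit without pairs its log2 difference was -0.12 (SE 0.042). In the clones 4 of 16 passed, and 9 with the block, against 25.5% and 41.4% of all genes. The kinase gene *HIPK2* was higher in Clone 39 than in Clone 28 by 0.85 (1.62e-08) and *TLE1* by 0.35 (0.0283), while *CDK6* was lower by 0.57 (8.63e-05) and the acetyltransferase gene *KAT6B* by 0.40 (0.0243). The replicate numbers called 6 of 16, against 29.0% of all genes: *KAT6B* (1.26e-06), *SUV39H1* (0.0139), *KAT6A* (0.0186), *TLE1* (0.0199), *TLE3* (0.0201) and *KMT2A* (0.0329), of which *KAT6B* (0.19) was highest at number 1 and *SUV39H1* (-0.23) lowest there.

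Genes known as RUNX targets in bone and blood mostly had few reads in these cells. Of 15 listed genes 5 passed the filter, and the others, among them the bone genes *SPP1* and *IBSP* and the blood gene *MPO*, had at most 14 reads in any library. None of the 5 passed with dTAG-13, with or without pairs, at a list median of -0.08. In the clones 1 of the 5 passed, against 25.5% of all genes: *CDKN1A*, a cell cycle inhibitor (adjusted p = 0.0135, edgeR). It was higher than in Clone 28 by 0.66 in Clone 35 and by 0.55 in Clone 39. The replicate numbers called 2 of the 5, against 29.0% of all genes: *CDKN1A* (6.39e-05) and *VEGFA* (0.00164), the vascular growth factor.

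The genes whose log2 CPM ran most like that of *CBFA2T3* over the 24 libraries were *EFHD1* (Pearson r = 0.80), *SYT8* (0.75), *SMAD6* (0.74), *SEPTIN9* (0.74) and *DLG5* (0.73). These libraries share the treatment, the clone and the replicate number, and r is given as a description. Since the fall of *CBFA2T3* with dTAG-13 entered r, the treatment contrast of these genes is no separate result. For *RUNX1* they were the noncoding RNA gene ENSG00000260586 (r = 0.90), *MED13L*, a Mediator subunit (0.88), the estrogen-induced gene *GREB1* (0.87), *SYT12* (0.87) and *MAP1LC3B2* (0.87). In DMSO their mean deviation at replicate number 1 was 0.39, 0.31, 0.15, 0.19 and 0.47 on the log2 scale, a pattern that their choice by likeness to *RUNX1* fixes in part and that is given without a test. Between members, *RUNX1* and *RUNX2* had an r of 0.76 over the 24 libraries, *RUNX1* and *CBFB* 0.50, and *CBFA2T3* and *CBFA2T2* 0.16.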

How the data were processed

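Nascent RNA of 3 degron-tagged T47D clones given DMSO or dTAG-13 was measured by PRO-seq, and libraries were grouped by clone and treatment as labelled. Per the labels and the study's methods, the authors trimmed adapters (cutadapt 1.8.1), collapsed duplicates by their molecular identifiers, removed ribosomal reads, aligned to hg38 (Bowtie2 2.4.4, SAMtools 1.9) and counted reads in genes. The deposited values are counts, whole reads per gene and library with no normalization. The annotation and strand setting of the counting are not given in the sources used here. Of 60605 identifiers, 60463 were named and placed with GENCODE 44.

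Counts were fitted in R 4.3.3 with edgeR 4.0.16 (robust quasi-likelihood test, TMM scaling, filterByExpr with a minimum count of 10 over 6 groups), with Benjamini-Hochberg adjustment over all 22326 genes tested and a threshold of 0.1, as in the study. The models were treatment with clone, clone in DMSO, replicate number with clone in DMSO, and the interaction of clone and treatment. Log2 CPM used a prior count of 2. Depth gives members other than *RUNX3* and *RUNX1T1* at least 229 reads in every library, and replicates of a group differed by a chi-square of at least 1.58 for each degree of freedom, so that the spread between dishes sets the precision. Promoter windows came from RefSeq and were searched in Python 3.11.15.

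Replicate numbers pair the libraries, since the labels give a shared time of collection for the treatments of a number. Deviations from group means of libraries with the same number correlated at 0.0926 to 0.318 within clones and at 0.135 to 0.352 in 12 comparisons across clones. Alternatives were RLE size factors, library totals, no filter on low counts, DESeq2 1.42.0, the replicate block, the dTAG-13 libraries in place of DMSO, and leaving out each clone or library.

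The 7 members and all gene lists were chosen with earlier results of these data known. Named beside the members are overlapping genes that passed the filter, listed genes past the threshold (at most 8 a list and comparison), and the 5 genes with the highest Pearson r over 24 libraries for *CBFA2T3* and for *RUNX1*. Markers of 5 cell types were listed as well. The results of 2 listed genes are not reported here. Signal tracks and the study's other assays were not used here.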

Additional observations from a re-analysis of the deposited data

Results flagged for a closer look

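In each of 63 sets of 4 values of the members (42 of CPM and 21 of paired differences), the gap between an extreme value and its neighbour was set against the whole range. In 4 sets it passed Dixon's critical value at the 95% level, where chance gives about 3.1. *RUNX2* was at 225 CPM in replicate 1 of Clone 39 with dTAG-13, above the other 3 libraries at 191 to 192 CPM. The difference of *RUNX1* between treatments was -0.28 on the log2 scale in replicate 2 of Clone 35, below the other 3 pairs. For *RUNX2* it was -0.10 in replicate 2 of Clone 39, and for *RUNX3*, on fewer than 20 reads a library, 0.28 in replicate 1 of Clone 39.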

How the results depend on the processing

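For dTAG-13 against DMSO the 123 genes became 197 with no filter on low counts, 521 with the replicate block, 66 to 151 without 1 library, and 1, 41 and 47 without Clone 28, 35 and 39. With the replicate block, 360 genes passed without Clone 35 and 377 without Clone 39. The 4 libraries of Clone 28 whose loss moved the count by over 1.5 times were replicates 3 (78) and 4 (66) in DMSO and replicates 1 (77) and 2 (69) with dTAG-13. *CBFA2T3* stayed at a log2 difference of -0.20 to -0.22 without any 1 library. Between clones in DMSO the 5686 genes became 9237 with the replicate block and 4833 to 5599 without 1 library. For the replicate number the 6478 genes became 2358 in DESeq2 and 5598 to 6285 without 1 library, and *RUNX1* passed in each of these. For the difference between clones in the response, the 0 genes became 6 with no filter and 1 with the replicate block. The causes were not tested. For the members, 371 recomputed adjusted p-values stayed on their side of the threshold, 8 lost the call and 4 gained it, and the log2 differences with dTAG-13 moved by less than the spread between pairs in all 209 refits. Beside the results already given with it, the replicate block changed no other call of a member. *RUNX3* and *RUNX1T1* are limited by depth.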
